A study of Mus musculus with 18 samples.

Results

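The nuclear-encoded subunits of the mitochondrial respiratory chain and ATP synthase were examined in mouse embryonic fibroblasts (MEFs) by RNA sequencing. Members were taken by gene symbol (the Nduf, Sdh, Uqcr, Cox and Atp5 names of subunits), which gave 77 of the 51499 loci in the table. By name, 36 belong to complex I, 4 to complex II, 8 to complex III, 15 to complex IV and 14 to complex V, and all 77 are annotated as protein coding on GRCm38 (GENCODE). Of these, 71 averaged 1 FPKM or more over the groups (fragments scaled by transcript length and by mapped fragments), and 66 had a mean of at least 50 FPKM.

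The experiment crossed 2 genotype labels, Ago2+/+ and Ago2-/- (a loss of Argonaute 2, the slicing enzyme of RNA interference), with 3 treatments. These were the solvent DMSO, tunicamycin and 500 nM thapsigargin. Tunicamycin stops N-glycosylation of proteins in the endoplasmic reticulum (ER), and thapsigargin inhibits the pump that loads the ER with calcium. Each of the 6 groups held 3 libraries, and both genotypes are MEF lines that were gifts from other laboratories, so a genotype difference is also a difference between lines. The libraries labelled Ago2+/+ carry the name DCR1 in their titles, the genotype labels of 4 of the 18 libraries conflict, and each group is called here by its label. The table gives 1 FPKM per group, pooled by the authors over its libraries. There is no replicate spread and no depth, so no difference below could be tested against the error between replicates, and a gene is called higher or lower only as a comparison of pooled values.

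In the inner mitochondrial membrane, complex I (NADH dehydrogenase) and complex II (succinate dehydrogenase) pass electrons to ubiquinone, complex III (the cytochrome bc1 complex) passes them on to cytochrome c, and complex IV (cytochrome c oxidase) reduces oxygen. Complex V (ATP synthase) uses the resulting proton gradient to make ATP. All complexes other than complex II combine nuclear-encoded subunits with subunits encoded by mitochondrial DNA, and nuclear respiratory factor 1 (NRF1), GA-binding protein (GABP, an ETS factor) and YY1 are known regulators of many nuclear subunit genes.

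Sequence letters of these factors were therefore looked for in the member promoters. RefSeq promoters (GRCm38.p6, 300 bases from 250 before to 50 after the start) were found for 64 of the 77 members, in 69 windows. Members were matched by symbol and, where that failed, by gene identifier to a later symbol. Promoters of loci averaging 1 FPKM or more were matched by symbol only. The 8 letters GCGCATGC of the NRF1 core were present on either strand in 10 of 69 member promoters (14.5%), against 2.71% of all 32851 promoters and 5.42% of the 11250 promoters of loci averaging 1 FPKM or more. The letters AAGATGGC of the YY1 core were in 9 of 69 (13.0%), against 2.75% and 4.75%. The letters CCGGAAGT of the ETS core were in 5 of 69 (7.25%), against 3.89% and 8.59%, so their share among members was near that of expressed loci. With 5 promoters, no difference from that share is read. A match of these letters is a description of the window and not of binding.

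Windows of 1 gene from each complex are shown, with matched letters in capitals, so that the position of the motif can be seen against its surroundings. The Ndufa9 window (chr6:126849095-126849170, minus strand) holds the YY1 letters. Sdhb (chr4:140961162-140961279, plus strand) holds the NRF1 letters on the opposite strand, and Uqcr11 (chr10:80406772-80406942, minus strand) holds the ETS letters followed by the NRF1 letters. In Cox6a1 (chr5:115349056-115349175, minus strand) and Atp5k (chr5:108434385-108434504, minus strand) the NRF1 letters matched on both strands with a shift of 2 bases, so that the capitals run over 10 bases.
Ndufa9: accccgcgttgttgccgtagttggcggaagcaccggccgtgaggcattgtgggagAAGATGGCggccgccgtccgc
Sdhb: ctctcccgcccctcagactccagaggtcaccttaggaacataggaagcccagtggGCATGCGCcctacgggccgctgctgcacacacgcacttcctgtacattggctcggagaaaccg
Uqcr11: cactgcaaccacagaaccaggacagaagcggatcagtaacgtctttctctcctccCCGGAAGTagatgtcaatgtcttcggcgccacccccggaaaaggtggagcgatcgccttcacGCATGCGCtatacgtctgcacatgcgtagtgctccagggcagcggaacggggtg
Cox6a1: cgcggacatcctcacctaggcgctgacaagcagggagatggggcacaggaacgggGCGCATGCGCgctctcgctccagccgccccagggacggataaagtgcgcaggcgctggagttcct
Atp5k: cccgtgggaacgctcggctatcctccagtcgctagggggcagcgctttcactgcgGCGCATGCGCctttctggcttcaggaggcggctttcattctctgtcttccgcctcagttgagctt

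The labels were checked before the subunits were compared. With the treatments in the order DMSO, tunicamycin and thapsigargin, the level of Ago2 was 22.1, 5.75 and 17.0 FPKM under the label Ago2+/+ and 5.61, 15.5 and 20.7 FPKM under the label Ago2-/-. Ago2 was thus low in 1 group of each genotype label, and directions below hold for the labels only. Which exons the Ago2-/- line lacks is not stated in the sources used here, so fragments of other exons may count under that label, which was not tested. Of 8 fibroblast markers, 6 or 7 were at 1 FPKM or more in each group, and Thy1 was listed at 0 in all 6. The others differed widely between groups and not in 1 order. Col1a1 was between 5.97 and 651 FPKM and Col1a2 between 23.7 and 577, both highest in Ago2-/- tunicamycin and Ago2+/+ thapsigargin, the groups in which Vim (952 to 2634 FPKM) and the locus of S100a4 (285 to 1967 FPKM, 3 genes merged) were lowest. The part of these differences in the subunit values was not tested. The summed level of 4 smooth muscle markers was 2417 FPKM in Ago2+/+ thapsigargin and 1800 in Ago2-/- tunicamycin, and between 2.23 and 6.42 in the other groups, while Myh11, the marker of mature smooth muscle in that list, stayed at or below 0.0730. Skeletal muscle markers summed to at most 0.138 FPKM, endothelial markers to at most 0.449, epithelial markers to at most 1.33 and macrophage markers to at most 2.35. In bulk RNA, fewer cells of a type and less RNA per cell cannot be told apart.

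The subunits were abundant transcripts whose levels differed little between groups. Over the 71 members the median level was 124, 115 and 110 FPKM for the label Ago2+/+ (DMSO, tunicamycin and thapsigargin in this order, which is used for every series of 3 values below) and 117, 110 and 125 FPKM for the label Ago2-/-. A gene's range, the difference between its highest and lowest log2(FPKM + 1) over the 6 groups, had a median of 0.51 in the members (quartiles 0.36 and 0.74). It was 0.73 over all 11929 loci averaging 1 FPKM or more and 0.61 over the 2247 loci averaging 50 FPKM or more. A range of at least 1 was found for 4 of 71 members (5.63%), namely Uqcrc1, Cox5b, Atp5e and Ndufa5, against 32.3% of all loci and 21.1% of the abundant ones.

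**Figure D1:**
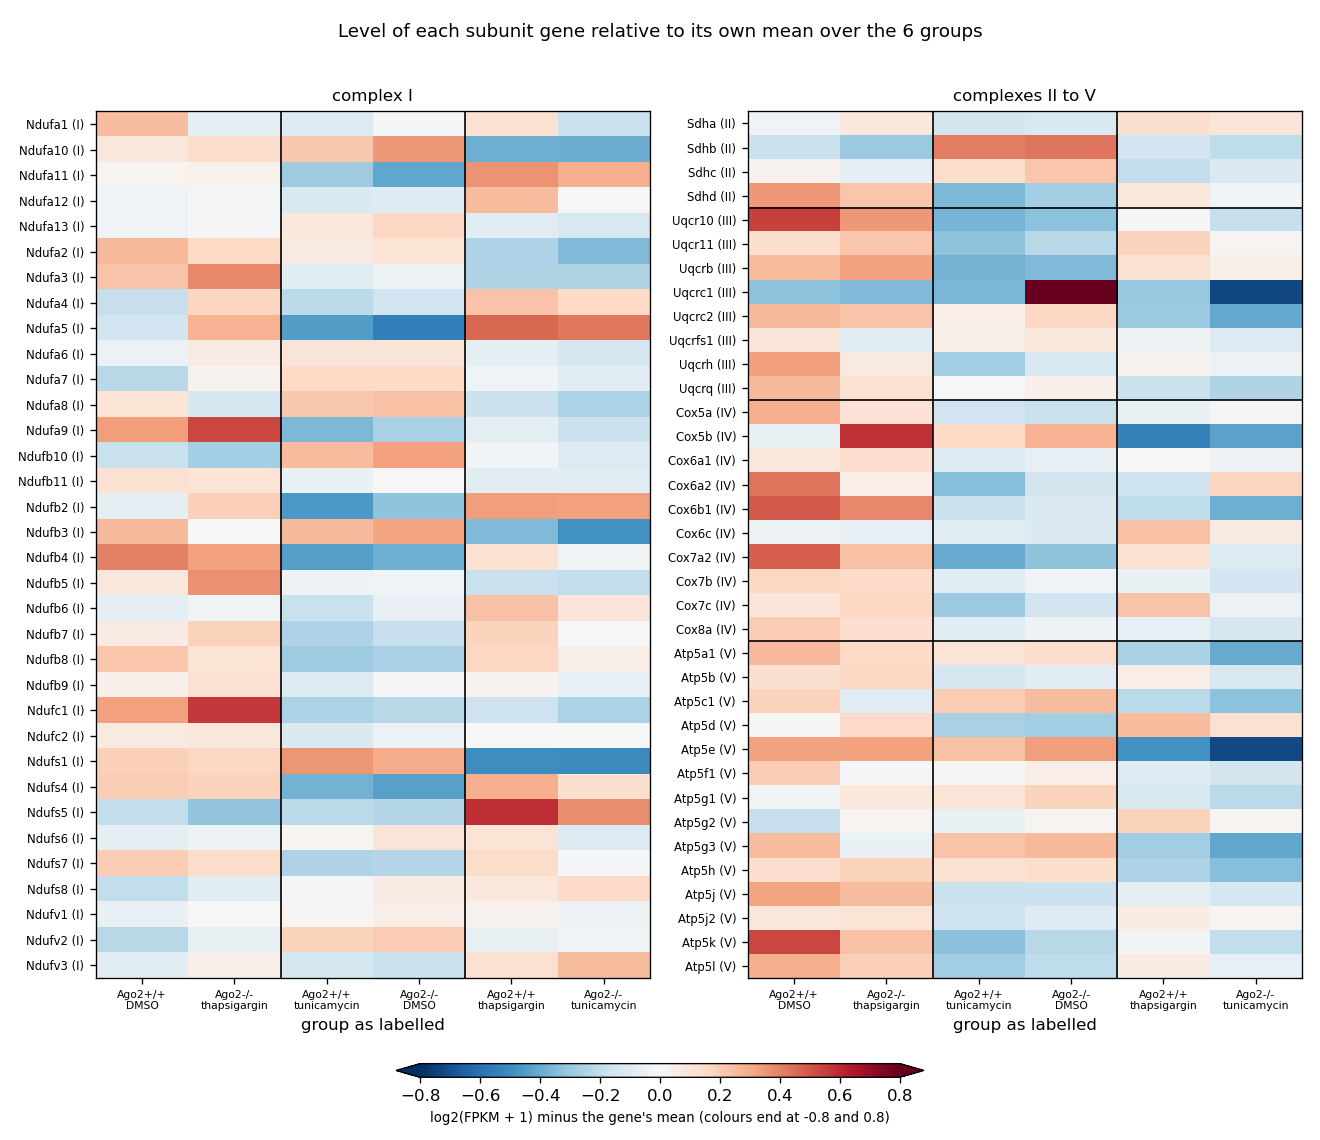
Level of 70 of the 71 subunit genes (rows, with the complex in brackets) in the 6 groups (columns, as labelled), as log2(FPKM + 1) minus the gene's mean over the groups; red is higher, blue is lower, and colours end at -0.8 and 0.8. Columns are arranged as the 3 closest pairs of groups, separated by lines, and most genes have like colours within a pair. Uqcrc1 in Ago2-/- DMSO and Ago2-/- tunicamycin is past the end of the colour scale or near it.

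Levels were ordered by complex in each group. FPKM are scaled by length, so levels were set side by side between genes. How well this scaling holds for short genes was not tested. The medians include 3 merged loci of complex I, and Uqcrc1 of complex III, which was near 1 FPKM in all groups but Ago2-/- DMSO. In Ago2+/+ DMSO the median level was 94.5 FPKM over 35 complex I genes, 87.2 over 4 complex II genes, 183 over 8 complex III genes, 227 over 10 complex IV genes and 217 over 14 complex V genes. Complexes I and II had the lowest medians in each of the 6 groups, and the order among complexes III, IV and V was not the same in all of them. In Ago2+/+ thapsigargin, for instance, complexes III and IV were at 161 and 162 FPKM and complex V at 185. The most abundant member was Atp5b, the catalytic beta subunit of ATP synthase, at 1102, 922 and 1048 FPKM for Ago2+/+ and 952, 923 and 1135 FPKM for Ago2-/-. The next 3 by mean level were Cox8a (516 FPKM), Atp5g3 (439) and Atp5a1 (382).

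Complex I takes its catalytic function from 7 nuclear-encoded core subunits, which carry the flavin and the iron-sulphur clusters, and its other nuclear subunits are accessory. Of the core subunits, 6 were measured above 1 FPKM, and the lowest mean among them was that of Ndufs1 (62.5 FPKM). Ndufv1, which binds NADH and the flavin, had the narrowest range of all members: 94.5, 99.6 and 101 FPKM for Ago2+/+ and 102, 95.8 and 98.9 FPKM for Ago2-/-. The accessory subunits Ndufc2 (range 0.20) and Ndufb11 (0.21) and the Rieske iron-sulphur protein Uqcrfs1 of complex III (0.21) were also among the narrowest.

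Ndufs1, the largest core subunit and the holder of several iron-sulphur clusters, was the exception in the core (chromosome 1, 63143596 to 63176833, minus strand). Its level was 69.4, 77.7 and 42.7 FPKM for Ago2+/+ and 74.8, 42.2 and 68.0 FPKM for Ago2-/-. The low values were thus those of Ago2+/+ thapsigargin and Ago2-/- tunicamycin, which are also the groups with smooth muscle markers, and the part of that in the result was not tested. The log2 ratio to the DMSO group of the same label was -0.69 for Ago2+/+ thapsigargin and -0.81 for Ago2-/- tunicamycin. Ndufv2, another core subunit, was at 97.2, 129 and 109 FPKM and at 131, 111 and 109 FPKM, and Ndufs7 at 104, 75.7 and 100 FPKM and at 76.3, 89.0 and 100 FPKM. These 2 core subunits thus stood in opposite order in Ago2+/+ tunicamycin and Ago2-/- DMSO, where Ndufv2 had its highest values and Ndufs7 its lowest. Ndufs8 was between 57.1 and 72.9 FPKM.

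The accessory subunit Ndufa5, which sits in the arm of complex I that reaches into the matrix, followed the reverse of Ndufs1 (chromosome 6, 24518666 to 24528013). It was at 65.0, 52.8 and 99.9 FPKM and at 49.0, 97.6 and 88.0 FPKM. Its highest values were in Ago2+/+ thapsigargin and Ago2-/- tunicamycin, the groups with smooth muscle markers, and the log2 ratio of Ago2-/- tunicamycin to Ago2-/- DMSO was 0.98, the highest of any member in that comparison. Ndufs5, an accessory subunit on the intermembrane space side, was at 52.3, 51.7 and 90.9 FPKM and at 51.0, 78.1 and 48.2 FPKM. It was high in those same 2 groups and between 48.2 and 52.3 in the other 4. Ndufb3, a membrane arm subunit, had its lowest values there (28.1 and 25.5 FPKM, against 36.1 to 45.1 elsewhere).

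Other accessory subunits divided the groups differently. Ndufa9, which binds NADPH, was at 90.1, 55.5 and 67.5 FPKM and at 59.4, 63.2 and 104 FPKM, so that Ago2+/+ DMSO and Ago2-/- thapsigargin were highest. Ndufc1 (150, 100 and 106 FPKM, then 102, 99.7 and 177) had its highest values in the same groups. Ndufb4 was lowest in Ago2+/+ tunicamycin (26.8 FPKM) and Ago2-/- DMSO (27.7), with 36.0 to 48.9 FPKM elsewhere. Ndufb10 had the reverse order in these groups, at 130 and 137 FPKM against 90.1 to 107 elsewhere. Ndufa4, which carries a complex I name but is found in complex IV, was the most abundant of the complex I names at 211, 207 and 281 FPKM and 215, 268 and 270 FPKM.

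For 4 complex I names the values have a limit of their own. Ndufs3, a core subunit, was at 0.0165 FPKM in Ago2+/+ DMSO and listed at 0 in the other 5 groups. Since any cell with a working complex I uses this gene, and the adjoining genes Kbtbd4 and Ptpmt1 (chromosome 2, 90904740 to 90918258) were also listed at 0 or at most 0.00803 FPKM, it is given only as listed at 0. Ndufb2, Ndufb8 and Ndufb9 share their loci with 2 other genes each, so their FPKM are those of the merged loci. The merged locus of Ndufb2 was at 67.3, 51.2 and 89.4 FPKM and 56.3, 88.9 and 80.7 FPKM, that of Ndufb8 at 250, 176 and 241 and 179, 222 and 232, and that of Ndufb9 between 161 and 188.

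The 4 genes of complex II did not share 1 order of groups. Sdhb, the iron-sulphur subunit (chromosome 4, 140961203 to 140979193, plus strand, with its NRF1 letters shown above), was at 94.6, 142 and 95.9 FPKM and at 144, 92.5 and 86.7 FPKM. It was high in Ago2+/+ tunicamycin and Ago2-/- DMSO, and the other 4 groups lay between 86.7 and 95.9. Sdhd, a membrane anchor, had its 2 lowest values in just those groups (60.5 and 64.1 FPKM, with 76.4 to 99.3 elsewhere). The flavoprotein Sdha (73.4 to 89.0 FPKM) was lowest there as well, whereas the other anchor Sdhc (50.8 to 68.4 FPKM) was highest there. In the comparison of Ago2-/- DMSO with Ago2+/+ DMSO the log2 ratios were 0.60 for Sdhb and -0.63 for Sdhd.

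In complex III, Uqcrc1 stood apart from all other members (chromosome 9, 108936633 to 108949623). It encodes a core protein of the complex, yet its level was 1.05, 0.996 and 1.08 FPKM for Ago2+/+ and 9.87, 0.550 and 1.01 FPKM for Ago2-/-. It passed the filter only through the value in Ago2-/- DMSO. The other core protein, Uqcrc2, was between 74.3 and 119 FPKM, and the catalytic Rieske protein Uqcrfs1 between 75.9 and 87.7. The Uqcrc1 ratios (log2 2.41 for Ago2-/- DMSO over Ago2+/+ DMSO, -2.81 and -2.44 for Ago2-/- tunicamycin and Ago2-/- thapsigargin over Ago2-/- DMSO) therefore rest on a gene near the filter and on 1 pooled value.

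Among the small subunits of complex III, the level of Uqcr10 (chromosome 11, 4701973 to 4704342) was 379, 200 and 256 FPKM and 206, 227 and 329 FPKM, highest in Ago2+/+ DMSO and Ago2-/- thapsigargin. Uqcrb, which helps to form the ubiquinone site, was at 179, 115 and 163 FPKM and at 117, 154 and 188 FPKM, and Uqcrh, the hinge protein that aids contact with cytochrome c, was at 197, 129 and 159 FPKM and at 143, 151 and 164 FPKM. All 8 complex III genes were lower in Ago2+/+ tunicamycin than in Ago2+/+ DMSO, by -0.92 (Uqcr10) to -0.038 (Uqcrc1) on the log2 scale.

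In complex IV, the nuclear subunits surround a core that mitochondrial DNA encodes. Cox5b, a zinc-binding subunit on the matrix side (chromosome 1, 36691449 to 36693681), had levels of 187, 217 and 133 FPKM and 236, 144 and 291 FPKM. It was the only member past 1.5-fold between Ago2+/+ DMSO and Ago2-/- thapsigargin, groups that differed little for most members. Cox5a was between 203 and 282 FPKM, highest in Ago2+/+ DMSO. Cox6b1, on the intermembrane space side, was at 277, 175 and 171 FPKM and at 182, 150 and 257 FPKM. Cox7a2, the isoform of liver and most other tissues, was at 196, 106 and 153 FPKM and at 112, 130 and 165 FPKM.

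The tissue isoforms of complex IV separated clearly by level. The widely used isoforms Cox6a1 (342 to 404 FPKM), Cox6b1, Cox7a2 and Cox8a (467 to 591) were abundant in all groups. The heart and skeletal muscle isoform Cox6a2 was between 2.60 and 5.13 FPKM, Cox7a1 of the same tissues between 0.305 and 1.79, and Cox8b was listed at 0 in all 6 groups. The testis isoforms Cox6b2 (at most 0.121 FPKM) and Cox7b2 (at most 0.0664) were near 0, and Cox8c was listed at 0. Cox4i2 was at most 0.0153 FPKM, and Cox4i1 was not analysed here. The level of Cox7a1 was 1.79 FPKM in Ago2+/+ DMSO and 0.811 or less in every other group, at a level where 1 pooled value carries little weight.

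Complex V consists of the catalytic F1 part, measured by 5 genes, and the membrane part Fo with its stalk, measured by 9. Atp5e, the epsilon subunit of F1 (chromosome 2, 174461072 to 174464105), had levels of 240, 226 and 137 FPKM and 243, 116 and 240 FPKM. It was low in Ago2+/+ thapsigargin and Ago2-/- tunicamycin, again the groups with smooth muscle markers, and between 226 and 243 in the other 4. The alpha subunit Atp5a1 (452, 404 and 315 FPKM, then 415, 284 and 421) and the gamma subunit Atp5c1 (272, 276 and 206 FPKM, then 286, 191 and 224) were lowest in those same 2 groups. The delta subunit Atp5d was not low in those groups, at 211, 175 and 250 FPKM and 173, 228 and 233 FPKM, and its 2 lowest values were in Ago2-/- DMSO and Ago2+/+ tunicamycin. In Ago2-/- tunicamycin over Ago2-/- DMSO the F1 genes accordingly ranged from -1.05 (Atp5e) to 0.39 (Atp5d) on the log2 scale, with a median of -0.55, and the 9 Fo and stalk genes had a median of -0.0099.

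The 3 genes of subunit c, whose mature proteins are identical, were each expressed. Atp5g3 was the most abundant at 514, 505 and 356 FPKM and 517, 323 and 416 FPKM, low in Ago2+/+ thapsigargin and Ago2-/- tunicamycin. Atp5g1 was at 198, 217 and 184 FPKM and 228, 173 and 214 FPKM, with its 2 lowest values in the same groups. Atp5g2 was at 207, 227 and 268 FPKM and 239, 238 and 239 FPKM, highest in Ago2+/+ thapsigargin. Atp5k, the e subunit of Fo, was at 274, 150 and 186 FPKM and 162, 165 and 223 FPKM, an order like that of Uqcr10.

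**Figure D2:**
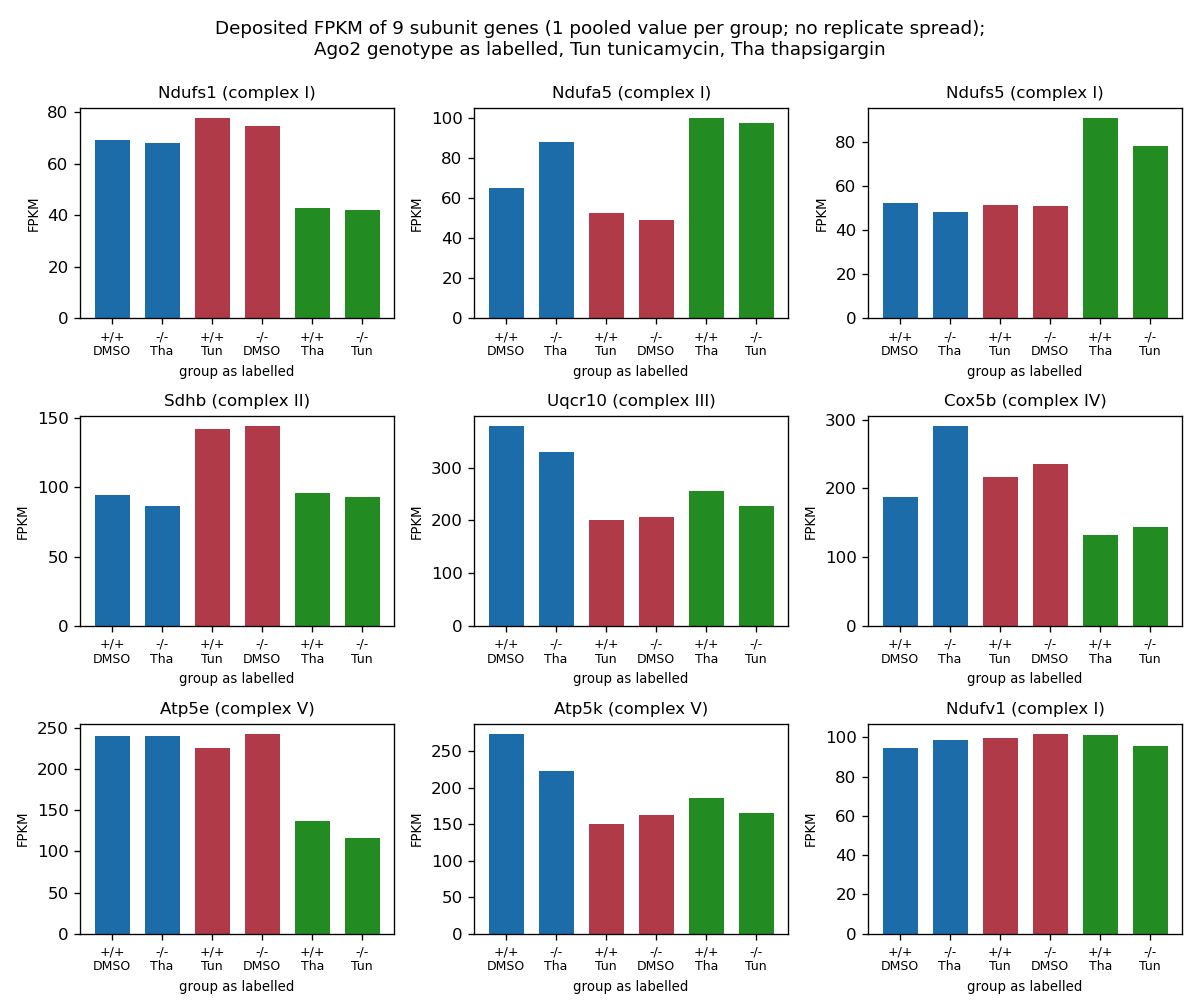
Deposited FPKM (vertical axis, from 0) of 9 subunit genes in the 6 groups as labelled; bars are pooled values of 3 libraries without error, and colours mark the 3 closest pairs of groups. Ndufs1 and Atp5e are lowest, and Ndufa5 and Ndufs5 highest, in Ago2+/+ thapsigargin and Ago2-/- tunicamycin, whereas Ndufv1 lies between 94.5 and 102 FPKM throughout.

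The stressors were then compared with DMSO at each genotype label, on the scale of log2(FPKM + 1), and a locus was counted where the difference reached 1.5-fold. For tunicamycin in the groups labelled Ago2+/+, 0 of 71 members were higher (background 15.2% of all loci) and 10 were lower (background 14.0%). The 10 were Uqcr10 (-0.92), Cox7a2 (-0.88), Atp5k (-0.87), Ndufb4 (-0.84), Cox6a2 (-0.77), Sdhd (-0.71), Ndufa9 (-0.69), Cox6b1 (-0.66), Uqcrb (-0.63) and Uqcrh (-0.61), of which Sdhd alone is on the list of core subunits. The highest ratios were those of Sdhb (0.58), Ndufb10 (0.44) and Ndufv2 (0.41). The median of the members was -0.18, with 52 of 71 below 0, and the median of all loci was 0.0054. By complex the median was -0.11 for I, -0.36 for III, -0.34 for IV and -0.17 for V, and the 4 genes of complex II ranged from -0.71 to 0.58.

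For thapsigargin in the groups labelled Ago2+/+, 2 members were higher (background 14.9%), namely Ndufs5 (0.79) and Ndufa5 (0.61). The count lower was 5 (background 12.6%): Atp5e (-0.80), Cox6b1 (-0.69), Ndufs1 (-0.69), Ndufb3 (-0.61) and Cox6a2 (-0.59). The third highest ratio was that of Ndufa4 (0.42). The median of the members was -0.13 and that of all loci 0.01. Complex V had the lowest median (-0.34, with 12 of 14 genes below 0), followed by complex IV (-0.31) and complex III (-0.23), and complex I was at -0.032.

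For tunicamycin in the groups labelled Ago2-/-, 4 members were higher (background 19.3%), namely Ndufa5 (0.98), Ndufa11 (0.71), the merged locus of Ndufb2 (0.65) and Ndufs5 (0.61), all of complex I. The count lower was 8 (background 17.5%): Uqcrc1 (-2.81), Atp5e (-1.05), Ndufs1 (-0.81), Ndufb3 (-0.80), Ndufa10 (-0.74), Cox5b (-0.71), Atp5g3 (-0.68) and Sdhb (-0.64). The median was -0.044, with 33 members above 0 and 38 below.

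For thapsigargin in the groups labelled Ago2-/-, 7 members were higher (background 14.3%), namely Ndufa5 (0.83), Ndufa9 (0.80), Ndufc1 (0.78), Ndufb4 (0.73), Uqcr10 (0.68), Uqcrb (0.67) and Ndufs4 (0.62). The count lower was 3 (background 16.8%): Uqcrc1 (-2.44), Sdhb (-0.73) and Ndufb10 (-0.60). The median was 0.14 with 46 of 71 above 0, and all 10 complex IV genes were above 0, from 0.053 (Cox6c) to 0.55 (Cox7a2). All loci had a median of -0.017 in this comparison and 0.00 in the one before. No member was past 1.5-fold in opposite directions under the same stressor at both genotype labels, and Sdhb under tunicamycin came closest, with 0.58 and -0.64. The share of all loci with this pattern was not computed.

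The genotype labels were compared at each treatment. Under DMSO, 2 members were higher in the group labelled Ago2-/- (background 15.1%), namely Uqcrc1 (2.41) and Sdhb (0.60), followed by Ndufb10 (0.51). Uqcrc1 passed the filter only through that group. The count lower was 9 (background 14.3%), led by Uqcr10 (-0.88), Cox7a2 (-0.80) and Ndufb4 (-0.80). Under tunicamycin 3 were higher (background 18.7%), namely Ndufa5 (0.87), the merged locus of Ndufb2 (0.78) and Ndufs5 (0.59), and 7 were lower (background 17.1%), led by Atp5e (-0.95), Ndufs1 (-0.86) and Ndufb3 (-0.75). Under thapsigargin 6 were higher (background 12.4%), led by Cox5b (1.12), Atp5e (0.80) and Ndufc1 (0.73), and 1 was lower (background 15.9%), Ndufs5 (-0.90). The next lowest there were Ndufa11 (-0.33) and Cox6c (-0.30). The member medians were -0.12, 0.002 and 0.091 in this order, against 0.0071, -0.0024 and -0.026 for all loci. The direction of this log2 ratio differed between treatments for Atp5e (0.015, -0.95 and 0.80), Ndufs5 (-0.035, 0.59 and -0.90) and Sdhb (0.60, -0.61 and -0.14). The DMSO values of Atp5e and Ndufs5 are too small to give a direction. Each of the 3 pairs of groups that were close over all loci, given below, has its groups on opposite sides of this ratio. The share of all loci with such a change of sign was not computed, and nothing particular to these genes is read from it.

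The members were past 1.5-fold in 7 to 12 of 71 cases in these 7 comparisons, a share of 9.86% to 16.9%. Uqcrc1, which passed the filter only through its value in Ago2-/- DMSO, is counted in each comparison with that group. Without it the count was 11 of 70 for tunicamycin and 9 of 70 for thapsigargin over DMSO in the groups labelled Ago2-/-. Between the genotype labels under DMSO it was 10 of 70. Abundant genes in general also differed less often than all loci. Among the 2247 loci averaging 50 FPKM or more, a background chosen after the levels of the members were seen, the share past 1.5-fold in either direction was 20.0% for tunicamycin and 19.2% for thapsigargin in the groups labelled Ago2+/+. For Ago2-/- the shares were 29.3% and 22.6%. Between the genotype labels they were 19.8% (DMSO), 27.4% (tunicamycin) and 20.8% (thapsigargin).

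**Figure D3:**
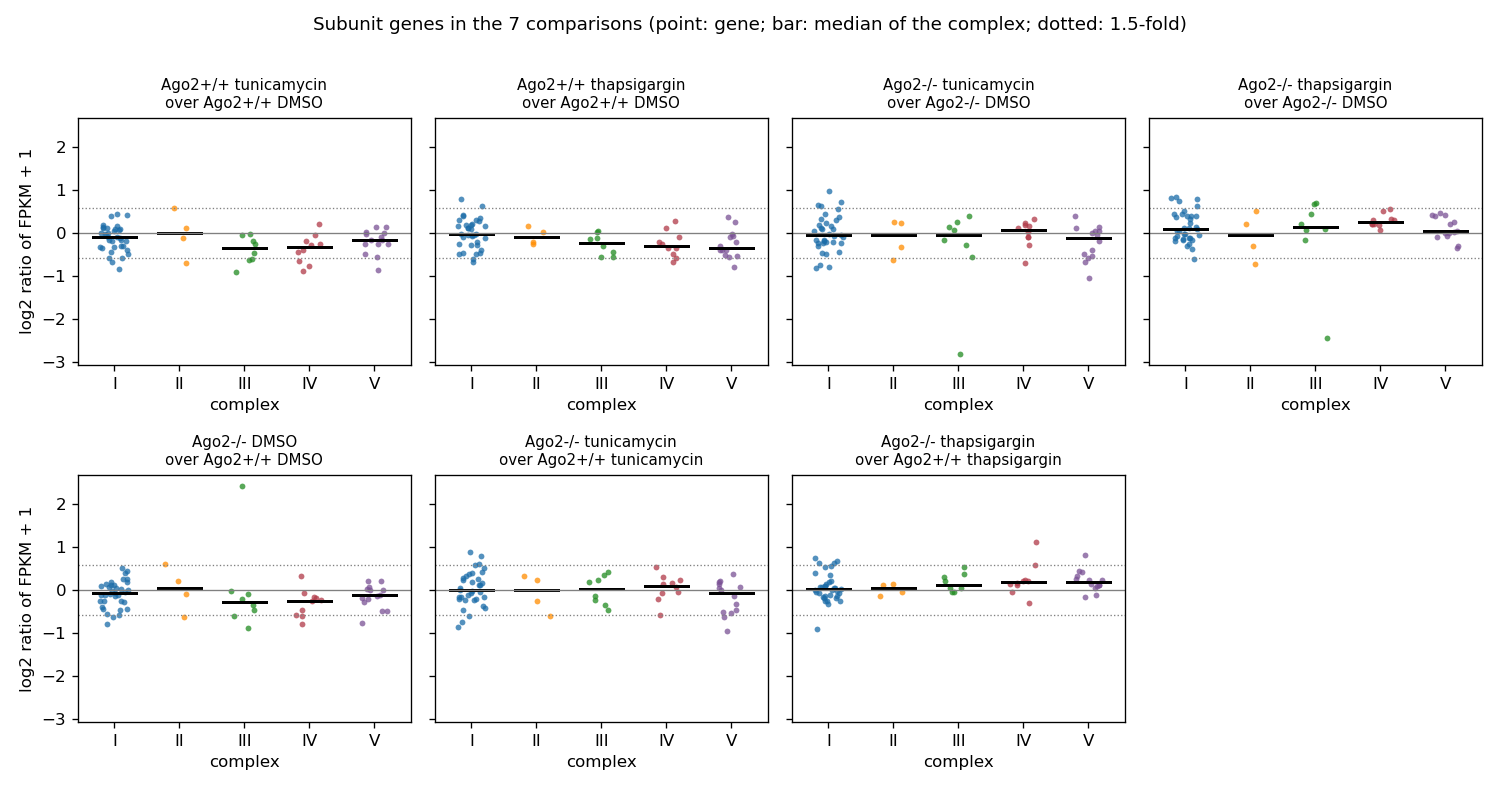
Difference in log2(FPKM + 1) of each of the 71 subunit genes (points) in the 7 comparisons (panels), by complex (horizontal axis); bars are the median of the complex and dotted lines mark 1.5-fold. Most genes lie within 1.5-fold in every panel, and the points beyond 2 in size are those of Uqcrc1, a gene near 1 FPKM in all groups but Ago2-/- DMSO.

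All 15 pairs of groups were then compared, since 3 pairs that cross the labels were close over all genes. Between Ago2+/+ thapsigargin and Ago2-/- tunicamycin 0 of 71 members were past 1.5-fold (background 2.36%), with a largest difference of 0.42 (Uqcrc1). Between Ago2+/+ tunicamycin and Ago2-/- DMSO it was 1, Uqcrc1 (background 1.94%), and between Ago2+/+ DMSO and Ago2-/- thapsigargin 1, Cox5b (background 5.62%). The median absolute difference of the members was 0.095, 0.051 and 0.10 in these pairs. The other pairs outside the 7 comparisons were not close: 12 members were past 1.5-fold between Ago2+/+ DMSO and Ago2-/- tunicamycin (background 28.2%), 10 between Ago2+/+ tunicamycin and Ago2+/+ thapsigargin (background 34.4%), 9 between Ago2+/+ tunicamycin and Ago2-/- thapsigargin (background 30.3%), 12 between Ago2+/+ thapsigargin and Ago2-/- DMSO (background 35.1%), and 9 between Ago2-/- tunicamycin and Ago2-/- thapsigargin (background 29.6%).

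Most members had their extremes in a close pair. The 2 highest values fell in Ago2+/+ DMSO and Ago2-/- thapsigargin for 28 of 71 members, in Ago2+/+ tunicamycin and Ago2-/- DMSO for 14, and in Ago2+/+ thapsigargin and Ago2-/- tunicamycin for 10. The 2 lowest fell in these pairs for 2, 28 and 23 members. Together the 2 highest values lay in a close pair for 52 members (73.2%), against 70.3% of all loci. The 2 lowest did so for 53 members (74.6%), against 69.8% of all loci, so this arrangement was not particular to the respiratory chain. The single lowest value was in Ago2+/+ tunicamycin for 26 members and in Ago2-/- tunicamycin for 26, and the single highest was in those groups for 1 and 2. Shares of all loci were not computed for single pairs or single groups, so these counts are not read as particular to the members.

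**Figure D4:**
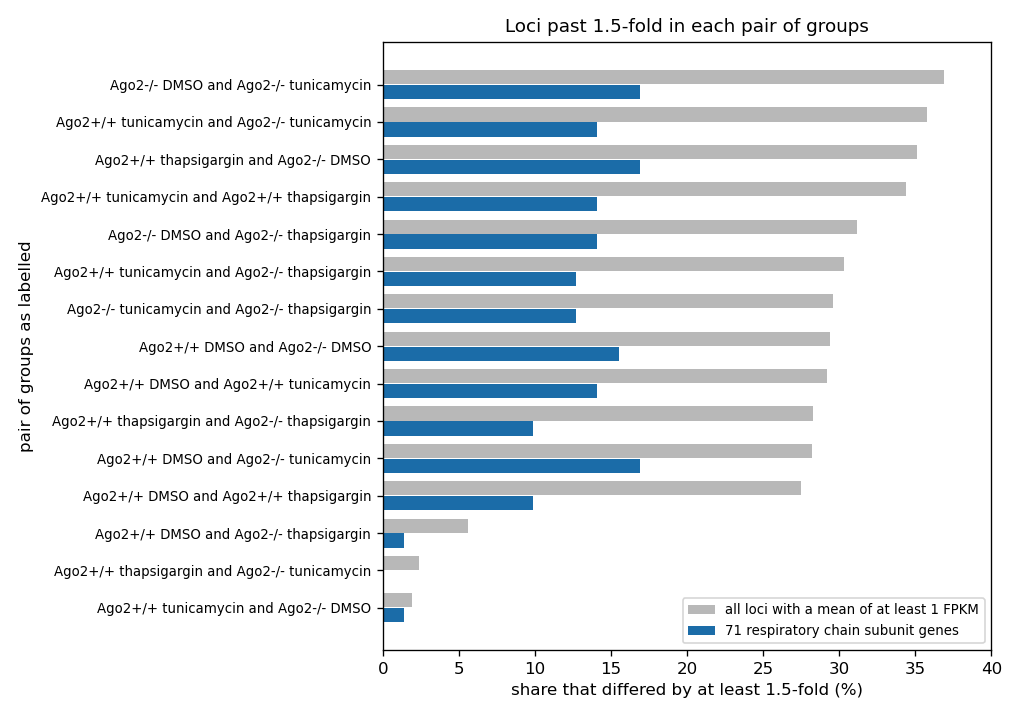
Share of loci (horizontal axis, percent) that differed by at least 1.5-fold in each of the 15 pairs of groups as labelled, for the 71 subunit genes (blue) and for all loci averaging 1 FPKM or more (grey). The 3 lowest pairs cross both labels, and the blue bar is shorter than the grey bar in each pair.

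Motif classes were read beside these ratios. The 9 genes with the YY1 letters (Atp5j, Atp5j2, Ndufa3, Ndufa9, Ndufb8, Ndufc1, Ndufs4, Ndufs6 and Ndufs7) had medians of -0.49 for tunicamycin over DMSO in the groups labelled Ago2+/+, 0.42 for thapsigargin over DMSO in those labelled Ago2-/-, and -0.47 between the genotype labels under DMSO. These 3 comparisons were picked after the values were seen, as those in which the YY1 medians were furthest from 0, and in the other 4 comparisons the medians were between -0.049 and 0.18. In the 3 comparisons the 4 genes with the ETS letters and a value had medians of -0.37, 0.19 and -0.29, the 10 genes with the NRF1 letters -0.12, 0.10 and -0.02, and all 71 members -0.18, 0.14 and -0.12. The ETS class thus departed from all members in the same directions as the YY1 class, by smaller amounts. These comparisons share groups. Each sets Ago2+/+ DMSO or Ago2-/- thapsigargin, a close pair, against Ago2+/+ tunicamycin or Ago2-/- DMSO, another close pair. The directions in the 3 comparisons therefore do not count separately. The classes are small, and no test was made.

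Some subunits fall outside the naming rule. Cyc1, the cytochrome c1 of complex III, was between 195 and 217 FPKM. Usmg5, a small ATP synthase subunit, was at 426, 173 and 329 FPKM and at 180, 310 and 304 FPKM, and Cox7a2l, which takes part in respiratory supercomplexes, at 91.4, 161 and 124 FPKM and at 163, 121 and 92.9 FPKM. Usmg5 was thus lowest, and Cox7a2l highest, in Ago2+/+ tunicamycin and Ago2-/- DMSO. Cycs, the mobile cytochrome c, was at 109, 69.1 and 102 FPKM and at 75.7, 83.8 and 132 FPKM, and the acyl carrier protein Ndufab1 at 136, 113 and 75.8 FPKM and at 111, 73.4 and 134 FPKM. Ndufa4l2, a paralog of Ndufa4, was at most 0.211 FPKM.

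Most subunits encoded by mitochondrial DNA were more abundant than the nuclear ones. All 13 were found, in 10 loci. Of these loci, 9 had means between 806 and 12205 FPKM, and mt-Nd6 was at 139, 128 and 105 FPKM and at 158, 92.2 and 132 FPKM, near the nuclear median. For tunicamycin over DMSO in the groups labelled Ago2+/+, 9 of 10 loci (all but mt-Nd6, at -0.12) were higher by 1.5-fold (background 15.2%) and 0 lower (background 14.0%), with a median of 0.88, whereas the nuclear members had a median of -0.18. In the groups labelled Ago2-/- all 10 were lower under tunicamycin (background 17.5%), with a median of -1.04, against -0.044 for the nuclear members. mt-Nd1 was at 3054, 5346 and 3110 FPKM and at 5647, 2826 and 3597 FPKM, and mt-Cytb at 2489, 4233 and 2809 FPKM and at 4478, 2809 and 3231 FPKM.

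The mitochondrial values did not keep a fixed ratio to each other. mt-Co2 was at 1930, 9666 and 3414 FPKM and at 3214, 1405 and 4210 FPKM, so its ratio to mt-Nd1 was 0.632, 1.81 and 1.10 and then 0.569, 0.497 and 1.17. The ratio of mt-Cytb to mt-Nd1 stayed between 0.792 and 0.994. On chromosome 1 (24611535 to 24616197) lie nuclear copies of the mitochondrial genome, at loci such as Gm28661 and Gm10925. The 6 copies summed to 1602, 15.0 and 11.3 FPKM and to 9740, 2385 and 18.8 FPKM. The 3 groups in which the copies were high were those with the 3 lowest ratios of mt-Co2 to mt-Nd1, and the part of the copies in the mitochondrial values was not tested.

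**Figure D5:**
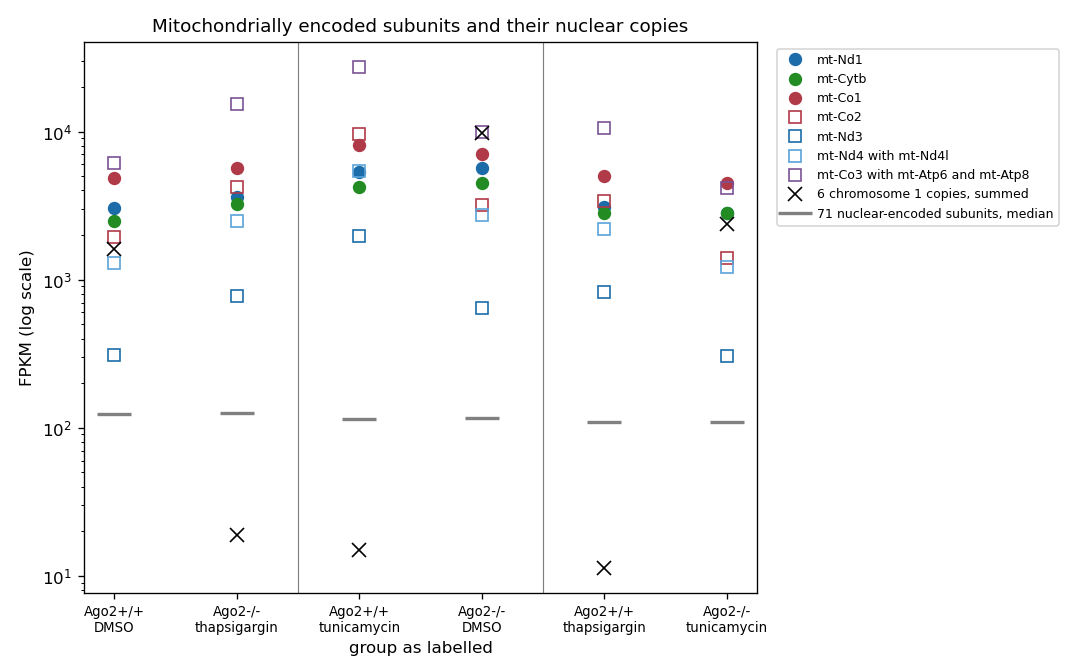
FPKM (vertical axis, log scale) of 7 loci of mitochondrially encoded subunits, of the 6 nuclear copies on chromosome 1 added together (crosses) and the median of the 71 nuclear-encoded subunits (grey bars, 110 to 125 FPKM) in the 6 groups as labelled. Circles keep about the same distance from each other in all groups, whereas squares are lower relative to them where the crosses are high.

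Genes that assemble or regulate the chain were read from lists of 48 and 13 genes, of which 46 and 12 loci had a mean of at least 1 FPKM. Of the 46 assembly factors, 4 were higher (background 15.2%) and 8 lower (background 14.0%) for tunicamycin over DMSO in the groups labelled Ago2+/+, and 1 was higher (background 14.9%) and 7 lower (background 12.6%) for thapsigargin. In the groups labelled Ago2-/-, 5 were higher (background 19.3%) and 9 lower (background 17.5%) for tunicamycin, and 7 were higher (background 14.3%) and 3 lower (background 16.8%) for thapsigargin. Several of these counts were close to the background, and nothing particular to assembly factors is read from them. Lrpprc, which stabilises mitochondrial mRNAs, was at 41.8, 73.2 and 35.8 FPKM and at 72.5, 31.6 and 48.5 FPKM. Its highest values were in Ago2+/+ tunicamycin and Ago2-/- DMSO, a close pair. Surf1, needed to assemble complex IV, was at 35.4, 52.1 and 31.0 FPKM and at 55.6, 29.6 and 26.6 FPKM, and the F1 assembly factor Atpaf1 at 6.23, 2.88 and 6.55 FPKM and at 3.24, 7.37 and 4.15 FPKM.

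Of the 12 regulator loci, 2 were higher (background 15.2%) and 0 lower (background 14.0%) for tunicamycin over DMSO in the groups labelled Ago2+/+. For thapsigargin 0 were higher (background 14.9%) and 2 lower (background 12.6%). In the groups labelled Ago2-/-, 0 were higher for tunicamycin (background 19.3%) or thapsigargin (background 14.3%). The count lower was 3 (background 17.5%) and 1 (background 16.8%). Nothing particular to regulators is read from these small counts. Among the regulators, Nrf1 was between 26.2 and 37.3 FPKM, Gabpa between 29.3 and 39.0 and Tfam, which packages mitochondrial DNA, between 38.5 and 53.7. Yy1 was at 34.7, 43.8 and 25.7 FPKM and at 42.1, 25.4 and 45.2 FPKM. Ppargc1b, a coactivator of mitochondrial genes, was at 0.136 FPKM in Ago2+/+ thapsigargin and 0.112 in Ago2-/- tunicamycin, the groups with smooth muscle markers, and between 1.99 and 2.24 in the other 4. At these low levels of Ppargc1b a pooled value carries little weight. Esrra, the nuclear receptor partner of Ppargc1b, was at 24.5 FPKM in Ago2+/+ tunicamycin and between 9.87 and 13.4 in the other groups. Tfb2m, a transcription factor of mitochondrial DNA, was at 13.5, 32.4 and 14.9 FPKM and at 30.0, 19.2 and 19.7 FPKM. Of 15 other mitochondrial proteins, 0 were higher by 1.5-fold in any of the 7 comparisons (backgrounds 12.4% to 19.3%). The number lower was 1 for tunicamycin (background 14.0%) and 1 for thapsigargin (background 12.6%) over DMSO in the groups labelled Ago2+/+. It was 5 for tunicamycin over DMSO in those labelled Ago2-/- (background 17.5%), namely Hspd1, Phb, Tomm40, Slc25a5 and Tomm20, and 4 between the genotype labels under tunicamycin (background 17.1%), with 0 in the other 3 comparisons. The chaperonin Hspd1 was at 540, 741 and 378 FPKM and at 776, 300 and 548 FPKM.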

How the data were processed

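RNA was sequenced from 18 MEF libraries. The submitters' processing notes name FastQC 0.11.7, HISAT2 2.1.0, StringTie 1.3.4d, Cuffdiff 2.2.1 and GRCm38. The deposited FPKM are 1 value per locus and group, estimated by the authors over 3 libraries and scaled for length and mapped fragments. No source used here states library scaling, strandedness or depth. The table also holds the authors' fold changes, test statistics, p and q values for each pair of groups, which were not used, so no test is reported. Libraries were grouped by title. For 4 libraries the genotype labels conflict, and the pooled values do not allow leaving them out.

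Members and gene lists were chosen with earlier results of these data known. Named genes are the 10 widest and 5 narrowest ranges, the 3 highest and lowest ratios per comparison, core subunits, tissue isoforms, members under 1 FPKM and merged loci, and some further members and list genes named after their values were seen. The values of 1 member that this rule names are not reported here. Ratios are differences in log2(FPKM + 1), which understate those of low genes, among loci averaging 1 FPKM or more. The counting was tested on simulated data with planted changes much larger than 1.5-fold, so that test does not cover calls near the threshold. Alternatives were a pseudocount of 0.1, no filter, centring, unmerged loci and 2-fold. Coordinates are GENCODE on GRCm38, and promoters RefSeq. Analyses used Python 3.11.15, pandas 2.3.3 and matplotlib 3.10.9.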

Additional observations from a re-analysis of the deposited data

How the results depend on the processing

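No paired analysis was possible because the table holds 1 value per group, and for the same reason no replicate could be left out. At a threshold of 2-fold the number of members past it was 0 and 0 for tunicamycin and thapsigargin over DMSO in the groups labelled Ago2+/+, 2 and 1 in those labelled Ago2-/-, and 1, 0 and 1 between the genotype labels under DMSO, tunicamycin and thapsigargin, so that the counts at 1.5-fold are mostly of differences under 2-fold. The share of all loci past 2-fold in these comparisons was not computed, so the 2-fold counts are not set against the rest of the loci. At 1.5-fold, all 35 counts under the other settings (pseudocount of 0.1 FPKM, no filter, centring, unmerged loci, and without Uqcrc1, the last chosen after its values were seen) were within 1.5 times the reported count. All 35 medians moved by at most 0.044, less than the SD over the members. The sign differed in 3 of them, each of a median within 0.044 of 0: without a filter that of tunicamycin over DMSO in the groups labelled Ago2-/- was 0.00, and that between the genotype labels under tunicamycin was 0.00 without a filter and -0.018 with unmerged loci. With Ndufa4 in complex IV no median of complex I or IV moved by more than 0.05. The depth is unknown, and pooled values leave the size of the replicate error unknown for each difference given.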

Other observations

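Length was set beside the ratios as a description. Across 67 members with an annotated locus of their own, Spearman's rho between exonic length and the log2 ratio was 0.28 for tunicamycin over DMSO in the groups labelled Ago2+/+ and 0.27 between the genotype labels under DMSO, against 0.052 and 0.013 across 11175 loci. The 18 members with under 1000 exonic bases had a median of -0.24 in the first of these comparisons, and the other 49 a median of -0.12. The points share the same pooled libraries, and in the other 5 comparisons rho was between -0.21 and 0.064 for the members.

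Of the 6 loci named as pseudogenes of members, the highest value in any group was 2.67 FPKM (Atp5k-ps2 in Ago2-/- thapsigargin). Among members, 50 of 71 had ratios of opposite sign under tunicamycin at both genotype labels and 42 of 71 under thapsigargin, most of them under 1.5-fold. The share of all loci with opposite signs was not computed. Ago2+/+ tunicamycin was close to Ago2-/- DMSO over all loci (1.94% past 1.5-fold), and Ago2+/+ DMSO to Ago2-/- thapsigargin (5.62%). Near-equal groups thus stood on opposite sides of the ratio at the 2 labels, and nothing particular to the members is read from these counts.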
